A study of Mus musculus with 2 samples.

Results

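The 37 genes described here encode the enzymes and transporters of glycolysis, the enzymes of the pentose phosphate pathway, and the hypoxia-inducible factor (HIF) system with some of its targets. They were taken by name, and their probes were found through the RefSeq accession that each probe carries. Probes were found for 35 of the 37, and all 35 were well above background on both arrays, out of 12272 named genes that were. Pdk2 and Rpia have no probe under their accessions, so their signals were not measured. The cells were splenic CD4 T cells of C57BL/6 mice, an inbred strain, cultured for 5 days in all, of which the first 2 were with antibodies against the T cell receptor and CD28. Th9+IFNgamma cultures received IL-4 at 3 ng/ml, TGFbeta at 3 ng/ml and IFNgamma at 10 ng/ml. Th9 cultures received IL-4 at 10 ng/ml, TGFbeta at 3 ng/ml and a blocking antibody to IFNgamma at 1 µg/ml. The conditions thus differed in 3 components at once (IFNgamma, the antibody and the IL-4 dose), and each was measured on 1 single-colour Agilent array, so that no difference below has a replicate or a test.

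Glycolysis turns glucose into pyruvate in the cytosol, and activated T cells run it at a high rate and release much of the pyruvate as lactate even where oxygen is plentiful. The pentose phosphate pathway branches off at glucose 6-phosphate and supplies NADPH and ribose for nucleotides. HIF is a dimer of an oxygen-labile alpha subunit, encoded by Hif1a or Epas1, with the stable subunit Arnt. Prolyl hydroxylases of the Egln family mark the alpha subunit for destruction when oxygen is present, and the stabilised dimer raises transcription of many glycolytic genes by binding a short DNA element in their regulatory regions.

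On these arrays most glycolytic and pentose phosphate transcripts lay within 2-fold between the cultures, as most genes of the array did, and Hk2 was 2.41-fold lower in Th9+IFNgamma. The genes for the 3 HIF subunits also had lower signals in Th9+IFNgamma. Of the 35 measured genes, 32 (91.4%, against 87.4% of all genes) lay within 2-fold, 3 (8.57%) had signals 2-fold or more lower in Th9+IFNgamma, and 0 were higher by that much. Over all 12272 genes the shares were 7.42% for lower and 5.15% for higher, so the share of lower genes among the 35 is close to that of the array. The median log2 difference was 0.02 for the 35 genes and -0.01 for all genes, where a log2 difference is Th9+IFNgamma minus Th9 and a value of 1 is 2-fold. The quartiles were -0.19 and 0.23 for the 35 genes, and -0.36 and 0.31 for all genes. These genes are bright on the array, with 33 of the 35 at a mean scaled signal of at least 1000. Among all 6057 genes that bright, the quartiles were -0.22 and 0.33, and 3.78% were lower and 4.01% higher by 2-fold or more. Of the 33 genes, 3 were lower and 0 higher by that much. The closeness in the share of lower genes is thus to the whole array and not to genes of like brightness, and it rests on 3 genes.

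**Figure D1:**
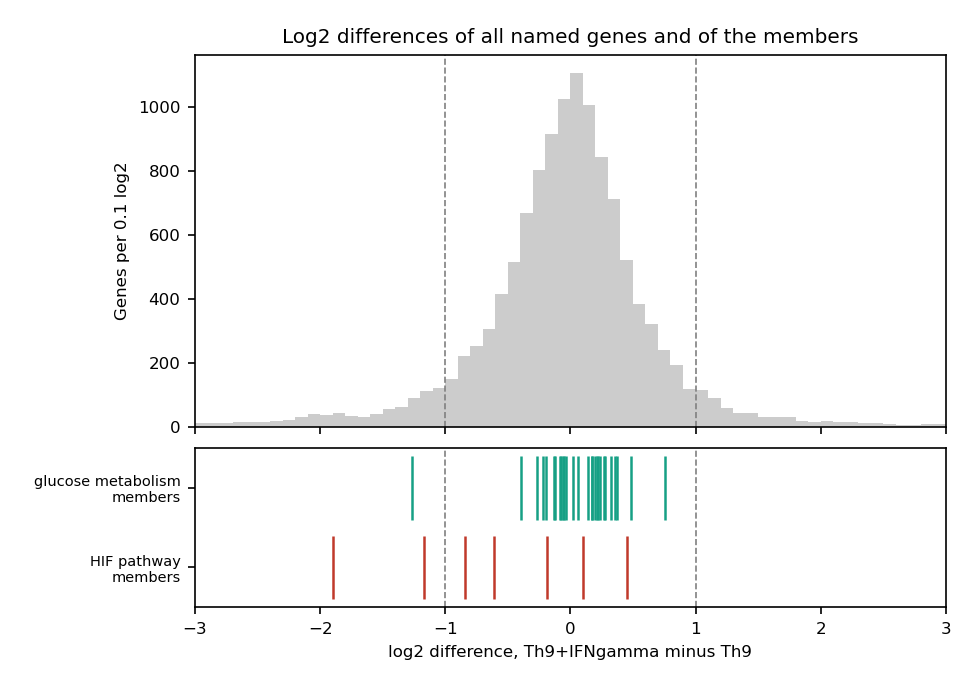
Histogram of the log2 difference (Th9+IFNgamma minus Th9, x axis) of 12272 named genes, with the number of genes per bin on the y axis, above tick marks for 28 genes of glucose metabolism and 7 genes of the HIF pathway. The 148 genes more than 3 log2 units apart lie outside the plotted range, dashed lines mark 2-fold, and the HIF genes spread further to the left than the ticks above them, with Hk2 as the 1 metabolic gene past the line.

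The 3 genes at least 2-fold lower in Th9+IFNgamma were Epas1, Hk2 and Hif1a. Epas1, which encodes the alpha subunit HIF-2alpha, had a scaled signal of 566 in Th9+IFNgamma and 2105 in Th9, which is 3.72-fold lower. A scaled signal is the processed intensity after both arrays were brought to one 75th percentile, and it compares a gene with itself between arrays, not one gene with another. Hk2, the hexokinase isoform that binds the outer mitochondrial membrane and is induced in proliferating cells, read 6211 in Th9+IFNgamma and 14946 in Th9 (2.41-fold lower). Hif1a, which encodes HIF-1alpha, read 2553 in Th9+IFNgamma and 5742 in Th9 (2.25-fold lower). Each of these 3 rests on 1 measured probe, and a second Epas1 probe stayed near background in both cultures. Over 10 other ways of processing the arrays the log2 difference stayed between -1.93 and -1.78 for Epas1, between -1.34 and -1.15 for Hk2, and between -1.22 and -1.05 for Hif1a. Some of these ways, such as another choice of probe, could not move a gene with 1 measured probe. Because the RNA is from whole cultures, fewer cells with a transcript and less of it per cell cannot be told apart.

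Promoter windows from RefSeq (build GRCm38.p6, 250 bases before to 50 after a gene's start) were available for 35 of the 37 genes, in 51 windows. These are not the 35 measured genes. Epas1 and Slc2a3 had no window, while Pdk2 and Rpia, which have no probe, are included. The letters ACGTG and GCGTG, the core of the hypoxia response element, were searched on both strands, as was the E-box CACGTG, which Myc family dimers bind and which contains ACGTG. One or the other core occurred in 41 of the 51 windows (80.4%) and in 43.8% of all 32851 windows of the table. ACGTG alone occurred in 47.1% of these windows and 19.6% of all, GCGTG in 58.8% of these and 32.4% of all, and CACGTG in 13.7% of these and 7.15% of all. These windows are also richer in G and C, with a median of 61.0% against 52.7% of all windows and 20.0 against 7.0 CG dinucleotides, and their part in the counts was not tested. A match shows letters and not a bound site. The windows shown are those of Hk2 and Hif1a, which were lower in Th9+IFNgamma, of Pfkp, the gene with the largest difference upward, and of Pgk1 and Ldha, textbook HIF targets whose signals were nearly equal in both cultures. Sequences run 5′ to 3′ on the gene's strand, and capitals mark ACGTG and GCGTG on either strand. The Hk2 window (chr6:82774405-82774704, minus strand) holds 2 ACGTG matches, and the Hif1a window (chr12:73907617-73907916, plus strand) 3, of which 2 overlap as an E-box in the first capital run. The Pfkp window (chr13:6648722-6649021, minus strand) has 4 GCGTG matches and no ACGTG. The Pgk1 window (chrX:106186850-106187149, plus strand) has 2 ACGTG matches. Of the 2 Ldha windows, the one with more matches (chr7:46845554-46845853, plus strand) holds 5 of ACGTG, with 2 E-boxes that each count once per strand, and 2 of GCGTG.
Hk2 promoter: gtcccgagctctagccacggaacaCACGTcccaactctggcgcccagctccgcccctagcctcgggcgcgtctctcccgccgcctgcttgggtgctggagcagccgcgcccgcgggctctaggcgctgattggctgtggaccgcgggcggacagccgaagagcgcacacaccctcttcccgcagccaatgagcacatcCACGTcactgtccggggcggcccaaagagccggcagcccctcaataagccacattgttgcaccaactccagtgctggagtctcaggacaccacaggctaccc
Hif1a promoter: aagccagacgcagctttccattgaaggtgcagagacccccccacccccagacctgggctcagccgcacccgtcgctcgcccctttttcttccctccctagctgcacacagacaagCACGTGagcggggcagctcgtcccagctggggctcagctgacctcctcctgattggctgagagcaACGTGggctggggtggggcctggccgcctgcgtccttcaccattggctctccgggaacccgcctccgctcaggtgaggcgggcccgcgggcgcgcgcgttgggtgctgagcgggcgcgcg
Pfkp promoter: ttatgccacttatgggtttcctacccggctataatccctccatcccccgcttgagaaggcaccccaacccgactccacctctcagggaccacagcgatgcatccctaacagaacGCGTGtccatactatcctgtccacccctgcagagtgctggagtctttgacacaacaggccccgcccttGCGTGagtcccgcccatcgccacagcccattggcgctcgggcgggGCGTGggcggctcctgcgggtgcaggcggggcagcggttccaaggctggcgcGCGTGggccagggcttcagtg
Pgk1 promoter: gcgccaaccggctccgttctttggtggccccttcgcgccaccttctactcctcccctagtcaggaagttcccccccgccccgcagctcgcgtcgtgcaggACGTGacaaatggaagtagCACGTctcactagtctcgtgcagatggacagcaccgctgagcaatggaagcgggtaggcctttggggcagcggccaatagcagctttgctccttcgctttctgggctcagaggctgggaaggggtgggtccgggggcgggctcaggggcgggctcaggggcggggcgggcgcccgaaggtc
Ldha promoter: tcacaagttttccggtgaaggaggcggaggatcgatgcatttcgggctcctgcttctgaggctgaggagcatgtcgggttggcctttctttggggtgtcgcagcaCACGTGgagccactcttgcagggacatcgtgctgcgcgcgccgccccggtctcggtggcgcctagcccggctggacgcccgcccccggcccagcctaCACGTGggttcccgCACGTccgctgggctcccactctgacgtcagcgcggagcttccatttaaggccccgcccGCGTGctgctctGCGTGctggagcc

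Glucose enters T cells through facilitative transporters, of which Slc2a1 (GLUT1) and Slc2a3 (GLUT3) are the main ones. Slc2a1 read 11858 in Th9+IFNgamma and 10361 in Th9 (1.14-fold higher), and Slc2a3 read 5583 in Th9+IFNgamma and 4731 in Th9 (1.18-fold higher). Both log2 differences, 0.19 and 0.24, are about the size of the error of 0.20 that the scanner software attaches to a difference of bright probes.

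Among the 10 genes of upper glycolysis, 9 lay within 2-fold, as 87.4% of all genes did, and the median log2 difference was 0.03. The hexokinases, which trap glucose as glucose 6-phosphate, went apart. Hk1, the widely expressed isoform, had 28586 in Th9+IFNgamma and 24677 in Th9 by its brightest probe (1.16-fold higher), and all 5 of its measured probes were higher, by 0.21 to 0.57 on the log2 scale, whereas Hk2 was 2.41-fold lower. Phosphofructokinase, which commits sugar to glycolysis, is built from 3 subunit types, and Pfkp, the platelet type, read 13002 in Th9+IFNgamma and 7710 in Th9 (1.69-fold higher). This was the largest upward difference among the 35 genes, and it rests on the brighter probe, since the second Pfkp probe read 177 in Th9+IFNgamma and 158 in Th9, a log2 difference of 0.16. The liver type Pfkl read 6941 in Th9+IFNgamma and 6280 in Th9 (1.11-fold higher). The muscle type Pfkm read 3873 in Th9+IFNgamma and 4650 in Th9 (a log2 difference of -0.26). Pfkfb3, the bifunctional enzyme whose product fructose 2,6-bisphosphate activates phosphofructokinase, read 4800 in Th9+IFNgamma and 3973 in Th9 (1.21-fold higher), and 1 of its 2 dimmer probes went the other way (-0.10).

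The remaining enzymes of upper glycolysis differed by no more than 1.21-fold. Gpi1, glucose 6-phosphate isomerase, read 151439 in Th9+IFNgamma and 160374 in Th9 (1.06-fold lower, and up to 0.05 higher on the log2 scale under another setting). Aldoa, the main aldolase of most tissues, read 391273 in Th9+IFNgamma and 427845 in Th9 (1.09-fold lower, and 0 with quantile normalization). Its relative Aldoc, best known from brain, read 28661 in Th9+IFNgamma and 32828 in Th9 (1.15-fold lower). Tpi1, which interconverts the 2 triose phosphates, read 99442 in Th9+IFNgamma and 82135 in Th9 (1.21-fold higher). The differences of Gpi1 and both aldolases lay within the software's error of about 0.20, and that of Tpi1 lay beyond it.

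The 6 genes of lower glycolysis, the stage that yields ATP and NADH, all lay within 1.5-fold, with a median log2 difference of -0.01. Over the whole array 28.1% of genes were at least 1.5-fold apart in either direction. Gapdh, glyceraldehyde 3-phosphate dehydrogenase, read 208704 in Th9+IFNgamma and 206230 in Th9 (1.01-fold higher). Pgk1, phosphoglycerate kinase, read 200709 in Th9+IFNgamma and 208347 in Th9 (1.04-fold lower). Pgam1, phosphoglycerate mutase, read 60615 in Th9+IFNgamma and 61939 in Th9 (a log2 difference of -0.03). Pkm, pyruvate kinase of muscle and proliferating cells, read 52366 in Th9+IFNgamma and 54464 in Th9 (1.04-fold lower). These 4 were the closest to equality, and the sign of each changed under at least 1 other scaling or choice of probe (-0.04 to 0.23 for Gapdh, -0.08 to 0.15 for Pgk1, -0.11 to 0.08 for Pgam1 and -0.08 to 0.06 for Pkm). The enolases stood a little higher. Eno1, the ubiquitous form, read 8801 in Th9+IFNgamma and 6808 in Th9 (1.29-fold higher), and Eno3, the muscle form, read 5270 in Th9+IFNgamma and 4203 in Th9 (1.25-fold higher). Gapdh, Pgk1, Aldoa, Eno1, Tpi1 and Ldha have many processed pseudogenes in the mouse, so that a probe may also take up related RNA.

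**Figure D2:**
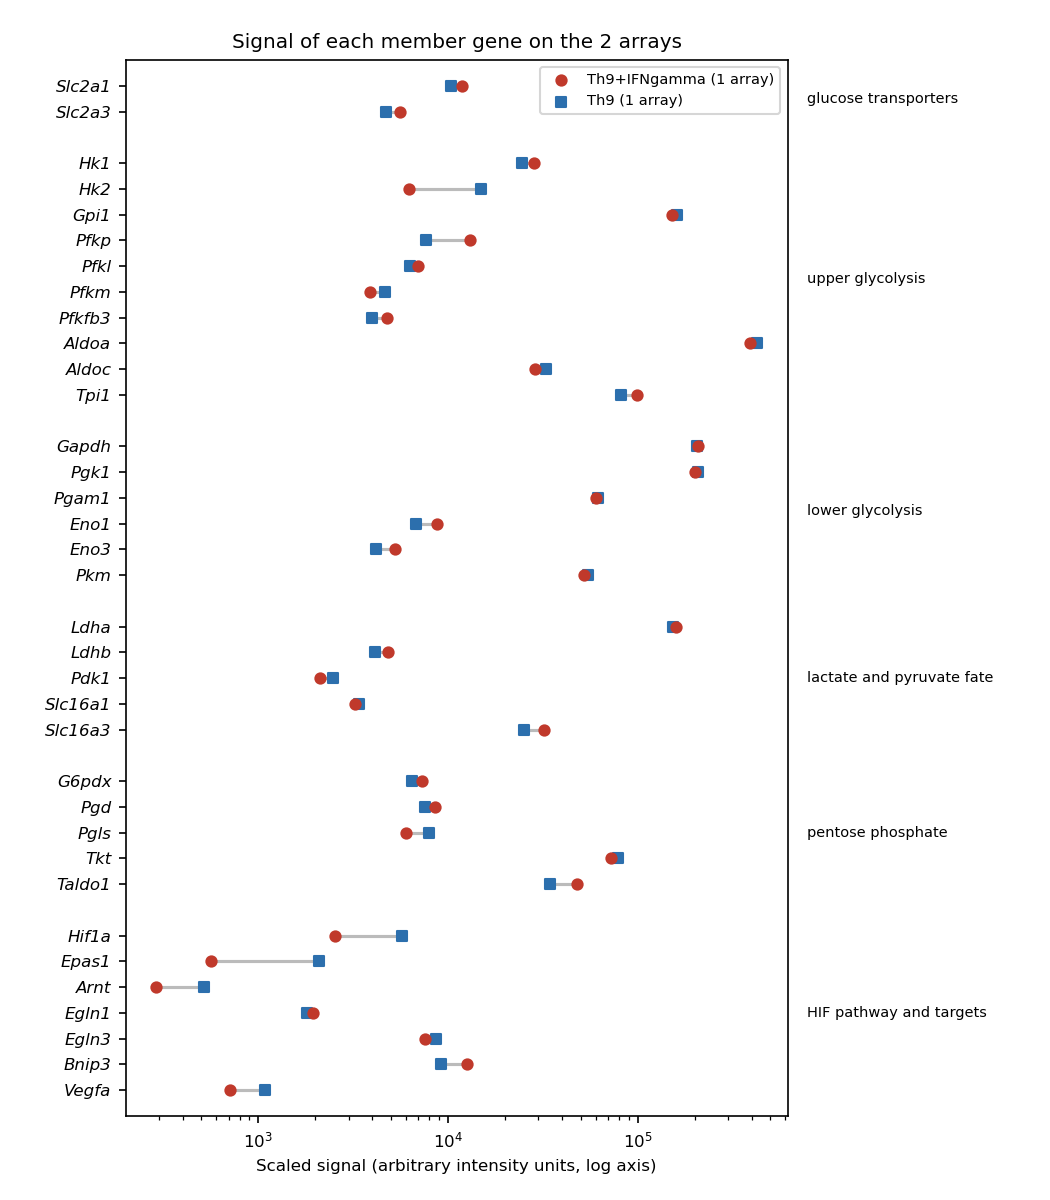
Scaled signal (arbitrary intensity units, log axis) of the 35 measured genes, grouped by role, with a circle for the Th9+IFNgamma array and a square for the Th9 array. The symbols of most enzymes touch or overlap, as for Gapdh (208704 in Th9+IFNgamma and 206230 in Th9), while those of Hk2, Pfkp, Hif1a, Epas1, Arnt and Vegfa are apart.

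Pyruvate either becomes lactate or enters mitochondria, and the 5 measured genes at this branch had a median log2 difference of 0.06. Ldha, the lactate dehydrogenase subunit that favours lactate formation, read 159624 in Th9+IFNgamma and 152747 in Th9 (1.05-fold higher), with its second probe at 0.11 on the log2 scale. Ldhb, the subunit typical of heart, read 4820 in Th9+IFNgamma and 4133 in Th9 (1.17-fold higher). Pdk1, a kinase that shuts off pyruvate dehydrogenase and is a HIF target, read 2125 in Th9+IFNgamma and 2477 in Th9 (1.17-fold lower), while its other probe had a log2 difference of 0.04. The lactate carriers were near each other as well. Slc16a1 (MCT1) read 3238 in Th9+IFNgamma and 3407 in Th9 (1.05-fold lower, and up to 0.04 higher on the log2 scale under another setting). Slc16a3 (MCT4), the exporter of highly glycolytic cells, read 32214 in Th9+IFNgamma and 25219 in Th9 (1.28-fold higher).

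The pentose phosphate genes split by small amounts around a median log2 difference of 0.17. In the oxidative arm, G6pdx, the rate-limiting glucose 6-phosphate dehydrogenase, read 7268 in Th9+IFNgamma and 6464 in Th9 (1.12-fold higher). Pgd, 6-phosphogluconate dehydrogenase, read 8554 in Th9+IFNgamma and 7571 in Th9 (1.13-fold higher), and its 2 probes both had a log2 difference of 0.18. Pgls, the lactonase between these steps, read 6038 in Th9+IFNgamma and 7955 in Th9 (1.32-fold lower). In the non-oxidative arm, which shuttles sugars back to glycolysis, Taldo1 (transaldolase) read 48042 in Th9+IFNgamma and 34359 in Th9 (1.40-fold higher), whereas Tkt (transketolase) read 72223 in Th9+IFNgamma and 78774 in Th9 (1.09-fold lower). None of the 5 reached 1.5-fold in either direction, where 28.1% of all genes did.

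The 7 genes of the HIF list had log2 differences from -1.90 to 0.46. Their median of -0.61 is the value of Vegfa, so its range over the settings (-0.66 to -0.50) is that of 1 gene. The median of the 28 metabolic genes was 0.10 (0.05 to 0.22). Of the 7, 5 were lower in Th9+IFNgamma, where 6188 of the array's 12272 genes were, and 2 were lower by 2-fold or more, where 7.42% of the array was. All 3 subunit genes were among the lower ones. Besides Epas1 and Hif1a, the partner subunit Arnt read 290 in Th9+IFNgamma and 519 in Th9 by its brighter probe (1.79-fold lower), and 77.8 in Th9+IFNgamma and 115 in Th9 by the other, a log2 difference of -0.57. Vegfa, which encodes the angiogenic growth factor and is a classical HIF target, read 714 in Th9+IFNgamma and 1092 in Th9 (1.53-fold lower), and its 4 probes, designed to more than 1 transcript variant, gave log2 differences of -0.80 to -0.53. The value of -0.80 is that of its dimmest probe, which read 16.6 in Th9+IFNgamma and 28.9 in Th9, close to background. The oxygen sensors were close to equal. Egln1 (PHD2), the main HIF prolyl hydroxylase, read 1943 in Th9+IFNgamma and 1809 in Th9 (1.07-fold higher), and the HIF-inducible Egln3 (PHD3) read 7619 in Th9+IFNgamma and 8666 in Th9 (1.14-fold lower). Bnip3, a mitophagy receptor and HIF target, read 12629 in Th9+IFNgamma and 9204 in Th9 (1.37-fold higher). Of these HIF-inducible genes, Vegfa thus stood lower and Bnip3 higher, while the difference of Egln3 lay within the software's error.

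**Figure D3:**
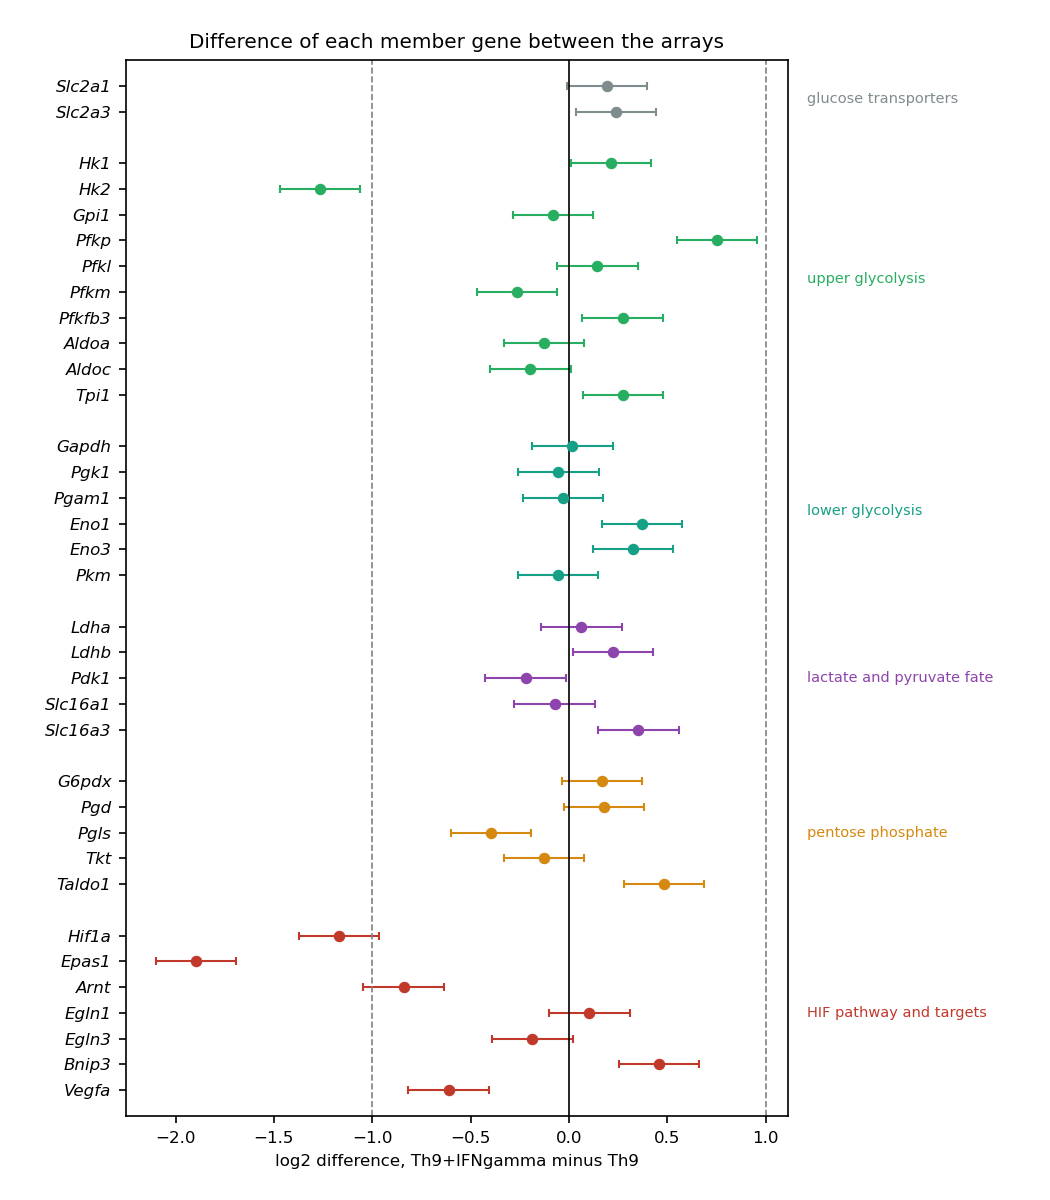
Log2 difference (Th9+IFNgamma minus Th9, x axis) of the 35 measured genes by role, with dashed lines at 2-fold. Bars show the error combined from those that the scanner software gave for the 2 signals (about 0.20 for every gene). Epas1 (-1.90), Hk2 (-1.27) and Hif1a (-1.17) lie past the left line, and no gene lies past the right one.

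At the looser limit of 1.5-fold, Pfkp was higher and 5 genes were lower (Epas1, Hk2, Hif1a, Arnt and Vegfa), 1 of 35 and 5 of 35, while 12.6% of all genes were higher and 15.5% lower by that limit. Differences exceeded the software's error for 19 of the 35 genes and lay within it for 16. This was not counted over all genes, whose quartiles (-0.36 and 0.31) lie beyond an error of 0.20. The 19 is therefore no result about these 35 genes. Of the 14 genes with several measured probes, 11 had probes of 1 sign, and the probes of Pfkfb3, Gapdh and Pdk1 disagreed in sign at differences below 0.41.

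Vegfa, Gpi1 and Pgk1 each have a probe printed 10 times per array, which shows how far spots of 1 array scatter. Spots flagged as outliers were left out. Vegfa ranged from 646 through a median of 723 to 746 over 9 spots in Th9+IFNgamma and from 1025 through 1092 to 1136 over 10 spots in Th9. The ranges did not overlap, and each of the 9 positions usable on both arrays was lower in Th9+IFNgamma, by log2 differences of -0.74 to -0.56. Gpi1 ranged from 148236 through 151100 to 157782 over 8 spots in Th9+IFNgamma and from 158694 through 158991 to 163722 over 9 spots in Th9. These ranges also did not overlap, though the difference is 1.06-fold. Pgk1 ranged from 191467 through 201042 to 208648 over 9 spots in Th9+IFNgamma and from 194237 through 210868 to 223386 over 10 spots in Th9, and the ranges overlapped. Spot scatter covers printing and reading of an array, and leaves out mice, cultures and labelling. A gap between spots, as for Gpi1, is therefore no measure of a difference between cultures.

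**Figure D4:**
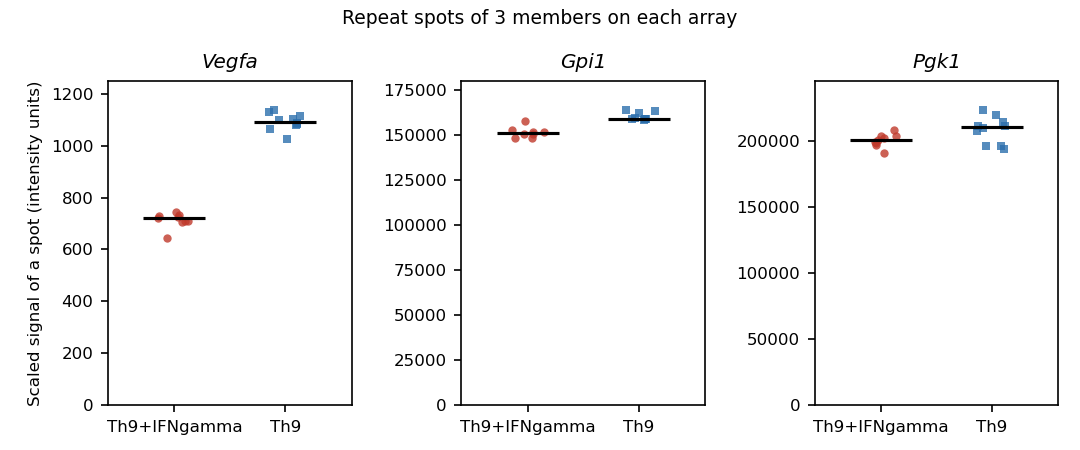
Scaled signal (intensity units, y axis from 0) of each usable repeat spot of Vegfa, Gpi1 and Pgk1 on the Th9+IFNgamma array (left) and the Th9 array (right), with lines at the medians. Vegfa spots are well apart (median 723 in Th9+IFNgamma and 1092 in Th9), while those of Gpi1 and Pgk1 are close.

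Another 130 genes of the same and neighbouring pathways were listed as well, and 106 of them were well above background on both arrays. Of these, 4 were higher and 6 lower in Th9+IFNgamma by 2-fold or more, with a median log2 difference of -0.07. Over the whole array 5.15% of genes were higher and 7.42% lower by that much, so these counts lie below the array's shares, and the values that follow describe single genes and nothing particular to the lists. Eno2, the neuronal enolase and a HIF target, read 28.4 in Th9+IFNgamma and 158 in Th9 (5.59-fold lower), and its 2 probes agreed. Its log2 difference was -1.34 after normexp background correction instead of -2.48. Here and below, the normexp setting adds 50 to every signal, which by itself shrinks the log2 differences of dim genes. A smaller value with normexp is therefore no better estimate for them. Hk3, a hexokinase of blood cells, was dim and read 59.1 in Th9+IFNgamma and 19.9 in Th9 (2.98-fold higher, 0.56 on the log2 scale with normexp). The other 11 of 13 measured glycolytic isozymes and regulators, Pfkfb4 and Tigar among them, lay within 2-fold, and the list's median was -0.02. Pgk2, the testis form, was well above background on the Th9 array alone, at 23.4 against 2.41 in Th9+IFNgamma, which gives at least 2.10-fold lower.

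Among other glucose transporters, 4 of 8 were measured on both arrays, 3 of them lower in Th9+IFNgamma, where 6188 of the array's 12272 genes were lower. Slc2a2 read 12.2 in Th9+IFNgamma and 32.5 in Th9 (2.66-fold lower, -0.43 on the log2 scale with normexp), close to background in both. Slc2a4 was well above background on the Th9 array alone, at 9.81 in Th9+IFNgamma and 26.0 in Th9, at least 2.35-fold lower. All 11 measured genes for entry of pyruvate into mitochondria lay within 2-fold, with a median of -0.19, as did all 8 other pentose phosphate and ribose genes, with a median of 0.14. Over the whole array 87.4% of genes lay within 2-fold.

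Of 18 measured genes of gluconeogenesis and glycogen, 2 were higher and 2 lower by 2-fold or more, where 5.15% of the array's genes were higher and 7.42% lower. Gyg, glycogenin, which primes the chain, read 9439 in Th9+IFNgamma and 24406 in Th9 (2.59-fold lower), and Gbe1, the branching enzyme, read 6510 in Th9+IFNgamma and 16678 in Th9 (2.56-fold lower). Pygl, the liver form of glycogen phosphorylase, which breaks the chain down, read 13001 in Th9+IFNgamma and 6187 in Th9 (2.10-fold higher, with a log2 difference just under 1 with quantile normalization). Pygm, the muscle form, read 124 in Th9+IFNgamma and 39.9 in Th9 (3.11-fold higher, 0.86 on the log2 scale with normexp). The synthase Gys1 differed by -0.04 on the log2 scale and the brain phosphorylase, Pygb, by -0.55.

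Among hypoxia-induced genes outside the 37, more were lower than higher, nearly all by less than 2-fold. Of 27 measured, 17 were lower and 10 higher in Th9+IFNgamma, with a median log2 difference of -0.33 that ranged from -0.35 to -0.22 over the settings. Over the whole array 6188 of 12272 genes were lower. Of the 27 genes, 1 was lower by 2-fold or more, where 7.42% of the array was, so by that limit the list was not lower than the array. Adm, the vasodilator adrenomedullin, read 39.9 in Th9+IFNgamma and 111 in Th9 (2.79-fold lower). It is dim, and with normexp its log2 difference was -0.78. The other 26 lay within 2-fold. All 7 other genes of oxygen sensing lay within 2-fold too, as 87.4% of the array's genes did, with a median of -0.11.

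Of 18 measured genes for Myc, mTOR and glucose sensing, 16 lay within 2-fold, as 87.4% of all genes did, and the median was 0.08. Max, the dimer partner through which Myc binds E-boxes, read 32825 in Th9+IFNgamma and 9759 in Th9 (3.36-fold higher, by 1 probe). Myc itself differed by -0.30 on the log2 scale, at 5239 in Th9+IFNgamma and 6454 in Th9. Arrdc4, an arrestin that lowers glucose uptake, read 177 in Th9+IFNgamma and 424 in Th9 (2.40-fold lower), while its better known relative Txnip differed by 0.48.

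**Figure D5:**
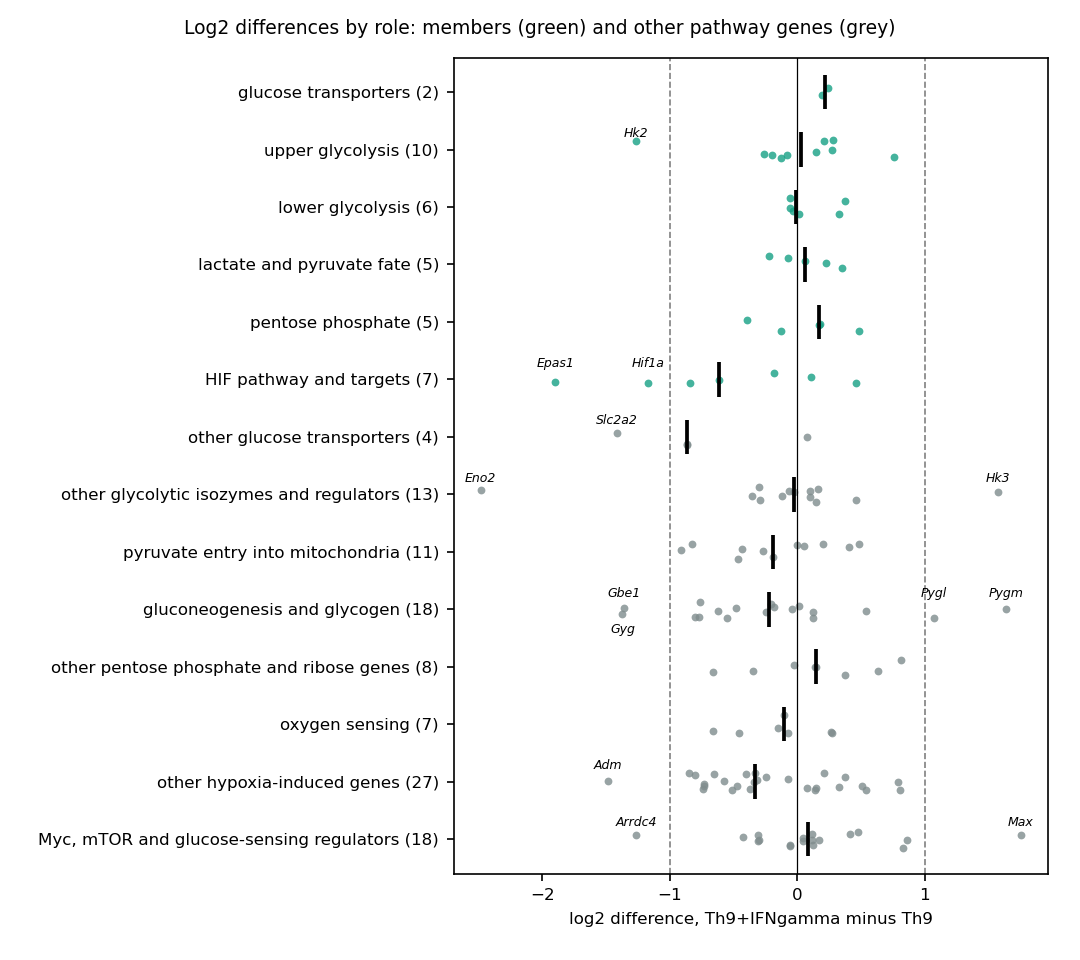
Log2 difference (Th9+IFNgamma minus Th9, x axis) of each measured gene by role, with the 35 genes of the main list in green, 106 other pathway genes in grey, vertical bars at list medians, the number of genes in brackets and dashed lines at 2-fold. Genes at least 2-fold apart are named, and the median of the HIF list (-0.61) lies left of those of the glycolytic lists (0.03 and -0.01).

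The label of the cells was checked against marker genes. All 11 T cell markers, Cd3e, Cd3d, Cd3g and Cd4 among them, cleared the background limit in both cultures and summed to a scaled signal of 346444 in Th9+IFNgamma and 269110 in Th9, of which Thy1 alone made up 136706 in Th9+IFNgamma and 89089 in Th9. Cd247 was 2.13-fold higher in Th9+IFNgamma by its brightest probe, and its 3 probes gave log2 differences of 0.19 to 1.09. Of 28 markers of other cell types with a probe, 15 were well above background on both arrays, and the macrophage genes Lyz2 and Itgam, the B cell gene Pax5 and the NK cell gene Ncr1 were not well above background on either. Signals above 150 on either array were those of Cd79b (844 in Th9+IFNgamma and 1187 in Th9), Cd8a (1338 in Th9+IFNgamma and 1074 in Th9) and Adgre1 (25.8 in Th9+IFNgamma and 186 in Th9). A sum sets the same probes of a list against each other between the arrays, and not one list against another. Summed over each list, signals were 930 in Th9+IFNgamma and 1317 in Th9 for 5 B cell genes, 91.0 in Th9+IFNgamma and 247 in Th9 for 5 macrophage genes, 142 in Th9+IFNgamma and 156 in Th9 for 3 dendritic cell genes. They were 38.6 in Th9+IFNgamma and 114 in Th9 for 3 NK cell genes, 41.6 in Th9+IFNgamma and 148 in Th9 for 5 granulocyte and mast cell genes, and 222 in Th9+IFNgamma and 101 in Th9 for 6 erythroid and platelet genes. The part of such cells in the lower HIF signals was not tested.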

How the data were processed

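RNA (500 ng) was labelled with Cy3, per the labels. The authors extracted the scanner intensity in Feature Extraction, version 10.7.3.1 per the file headers (10.7 per the submitters' processing notes), background-subtracted and detrended, and deposited unscaled. A deposited table of log2 values equals the log2 median processed signal minus a constant per array (SD of the offset at most 2.5e-07, column medians -4.05 for Th9+IFNgamma and -3.93 for Th9), so its scale is known, and it served as an alternative. Each array has 43379 non-control spots for 41171 probes used, of which 60.6% were well above background on Th9+IFNgamma and 59.9% on Th9, with no saturated spot.

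Log2 processed signals were averaged over a probe's spots without outliers, and the array's 75th percentile (631.9 for Th9+IFNgamma and 567.0 for Th9) was subtracted. RefSeq accessions named 65.7% of probes (18434 genes, GRCm38.p6). A gene's value is its brightest probe well above background on both arrays. A gene above background on 1 array has a bound against the higher of its own dim signal and the dim array's lowest signal well above background. A single array per condition allows no test. For 144 probes with repeat spots, the log2 difference between the arrays was taken at each spot position. Its scatter about the probe's mean had an SD of 0.14, or 0.046 for signals of at least 1000. Values were computed with Python 3.11.15 and limma 3.58.1, checked on simulated data. All 37 members are named, and other pathway genes where at least 2-fold apart. A few listed genes are not reported here and are left out of the lists' counts and sums. Members and lists were chosen with earlier results of these data known.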

Additional observations from a re-analysis of the deposited data

How the results depend on the processing

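With 1 array per condition, spread between cultures is unknown. The count of genes at least 2-fold lower (3) and higher (0) was the same under 10 alternatives. These were median scaling, a 75th percentile over detected probes, quantile normalization, loess, the deposited value table, 2 filters on dim probes, 2 rules for a gene's probe, and normexp with 50 added to every signal. The filters and probe rules could not move the 3 lower genes, which have 1 measured probe each. The deposited table holds the same signals less a constant per array, so it could hardly move them either. Lowering the limit to 1.5-fold gave 5 lower and 1 higher. The median of the 35 genes ranged from -0.03 to 0.13, the highest with median scaling, which moved the median of all genes from -0.01 to 0.11. Of 350 values of single genes, 341 moved by less than the spot SD of 0.14, 9 moved further, and none of the 3 genes at least 2-fold lower changed sign. That SD is over all repeat probes, and it was 0.046 for signals of at least 1000, where 33 of the 35 genes lie. Many of the 350 values could not move, since 21 genes have 1 measured probe, which the filters and probe rules leave unchanged. The 341 is therefore no measure of stability. The sign was the same under all settings for 26 genes, Aldoa reached 0, and 8 genes changed sign, of which Pfkfb3 (-0.10) and Pdk1 (0.04) did so by the choice of the probe with the smallest difference. The planned normexp on the mean spot signal was not run, and the median spot signal, chosen after seeing the files, took its place. No paired analysis was possible because each group has 1 array and no test was made.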
